A study of Mus musculus with 69 samples.

Results

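The data compared bone marrow-derived macrophages (BMDMs) that lacked the transcription factor EGR2 with BMDMs that had it, after 6 hours of IL-4 at 20 ng/ml. Egr2WT cells came from Egr2 fl/fl mice without Cre, and Egr2MKO cells came from LyzM-Cre Egr2 fl/fl mice. The comparison was chosen by label, and it took 4 of the 69 samples of the series, 2 of each genotype. Both genotypes carry floxed Egr2, but the Cre allele sits at Lyz2 in Egr2MKO cells alone and recombines in cells of the myeloid lineage, so the deletion can begin in progenitors before the culture. The mice were females of 8 to 12 weeks, and the bone marrow was grown into macrophages with M-CSF. The other 12 libraries of the same table, from both genotypes without IL-4 or at 1 h and 24 h, were used to set the 6-hour values in time. The study's methods call the libraries biological replicates, without saying whether mice or cultures were separate, so p-values measure the spread between these libraries.

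IL-4 is the cytokine that drives alternative activation of macrophages. It signals through its receptor and the Janus kinases to STAT6, which induces early target genes such as Arg1 and Egr2 itself. EGR2 is a zinc-finger factor of the early growth response family that binds GC-rich DNA and can recruit the corepressors NAB1 and NAB2, and in IL-4-treated macrophages it is known as a second-wave regulator that acts after STAT6. The 6-hour point lies between the early and the late phase of the response.

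Values are TPM, read counts scaled by transcript length and library total, of polyadenylated RNA, and differences are Egr2MKO minus Egr2WT on the log2(TPM + 1) scale, which understates the change of low genes. They were tested with limma in 1 model of all 16 libraries, with Benjamini-Hochberg adjustment over the 12079 genes that reached 1 TPM in at least 2 libraries. A gene was called when it differed by over 2-fold with an adjusted p under 0.05. The 6-hour libraries held 10.7 M and 15.7 M tags in Egr2WT and 7.83 M and 16.0 M in Egr2MKO, within the 4.69 M to 32.9 M of the whole table. Macrophage genes were high in all 4 libraries, with Cd68 at 1967 to 2039 TPM, Csf1r at 917 to 1088 TPM and Lyz2 at 16131 and 15876 TPM in Egr2WT and 11921 and 11271 TPM in Egr2MKO. Lyz2, the gene of the Cre insertion, had a log2 difference of -0.47. Markers of B cells, T and NK cells, dendritic cells, erythroid cells, fibroblasts and mast cells summed to at most 6.60 TPM for any list in any of the 4 libraries.

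The libraries labelled Egr2MKO were low in Egr2. Its level (chr10:67537869-67542188, plus strand, mm10) was 88.4 and 92.5 TPM in Egr2WT and 3.10 and 5.23 TPM in Egr2MKO. That is a 21.7-fold difference (-4.18 ± 0.18 (SE), adjusted p = 3.4e-08), and the groups were far apart. Egr2 RNA was also low in Egr2MKO without IL-4, at 0.859 and 0.854 TPM against 23.6 and 21.3 TPM. The residual RNA rose with IL-4, since the 6-hour Egr2MKO libraries held more than the basal ones, but it stayed under the basal level of Egr2WT. Among the other members of the family, Egr1 was near the floor (2.31 and 3.37 against 3.22 and 1.66 TPM), Egr3 was under 1 TPM in all 4 libraries and Egr4 was listed at 0. The corepressor Nab2 was lower without reaching 2-fold (21.96 and 19.7 against 9.91 and 12.9 TPM, -0.82 ± 0.15 (SE), adjusted p = 0.0019), and Nab1 was higher by less than 2-fold (28.6 and 31.00 against 38.2 and 35.4 TPM, 0.30 ± 0.06 (SE), adjusted p = 0.0065).

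The second Egr2MKO library of 6 h stood apart. Across the 12079 genes, the difference between the 2 libraries of a group had an SD of 0.486 in Egr2MKO at 6 h, against 0.392 in Egr2WT at 6 h and between 0.227 and 0.352 in the other 6 groups. The 2 Egr2MKO libraries were over 2-fold apart for 453 genes, against 259 genes in Egr2WT. Among genes with a mean of at least 10 TPM in Egr2MKO, the 5 furthest apart were the microRNA genes Mir1668, Mir678, Mir6934, Mir6912 and Mir7646. A further set that was high in the second library is known from resident peritoneal macrophages. A list of 22 such genes, written after the values were seen, summed to 56.99 and 57.01 TPM in the Egr2WT libraries and to 149 and 599 TPM in the Egr2MKO libraries of 6 h. It also reached 282 TPM in the first Egr2MKO library of 1 h, and lay between 55.7 and 87.6 TPM in the other 11 libraries.

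Among those genes, Fn1, which encodes fibronectin, was 4.82 and 4.24 TPM in Egr2WT and 28.8 and 159.9 TPM in Egr2MKO. Prg4, the gene of the lubricant lubricin, was 1.11 and 1.30 TPM in Egr2WT and 7.42 and 51.4 TPM in Egr2MKO. Timd4, a receptor for phosphatidylserine on dead cells, was 0 and 0.17 TPM in Egr2WT and 0.93 and 7.06 TPM in Egr2MKO. Gata6, the factor that defines this macrophage type in the peritoneum, was low in absolute terms, at 0.165 and 0.579 against 0.402 and 2.13 TPM. Gata6 was too low to be tested, and Fn1 (adjusted p = 0.066) and Timd4 (adjusted p = 0.082) were not called. Of the 22 genes, 19 were tested and 7 were called higher at 6 h, beside 0.894% of all genes tested, and the median difference between the 2 Egr2MKO libraries was 1.98 on the log2 scale. In such bulk samples, more cells of a type and more RNA per cell cannot be told apart. Their part in the other results was not tested. Values without the second Egr2MKO library are given below for genes whose call may rest on it.

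**Figure D1:**
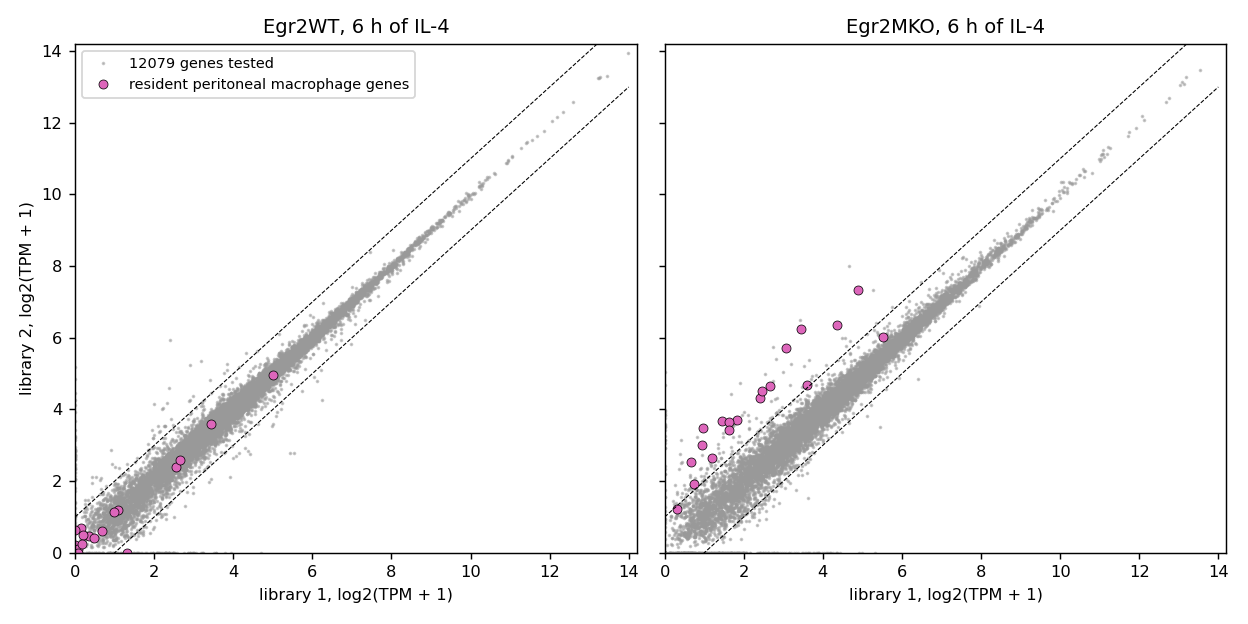
Level of each of 12079 genes in library 1 (x axis) and library 2 (y axis) of Egr2WT and of Egr2MKO after 6 h of IL-4, both in log2(TPM + 1), with dashed lines at 2-fold. The 19 tested genes of resident peritoneal macrophages lie near the diagonal in Egr2WT and mostly above the upper line in Egr2MKO, where their median difference is 1.98.

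At 6 h, 170 genes were lower in Egr2MKO (1.41% of those tested) and 108 were higher (0.894%). Of these, 21 and 13 were microRNA or small nucleolar RNA genes, short entries that often stood at 0 in a library, and the account below concerns the remaining 149 lower and 95 higher genes. In all 244 of them both Egr2MKO libraries lay beyond both Egr2WT libraries, but so did 22.4% (lower) and 28.7% (higher) of all genes tested. Most differences were moderate, with a median of -1.22 among the lower and 1.31 among the higher genes, and 11 and 13 genes were past 4-fold. Without the second Egr2MKO library 130 genes were lower and 97 higher, and 103 and 72 of the original calls were shared. Without the first one the counts were 287 and 198. The spread estimate came from all 8 groups of the table, while the 6-hour groups spread most, so adjusted p-values are too small for genes that varied more at 6 h than at other times. This bears most on counts made at adjusted p alone. With the 4 libraries of 6 h alone, 55 genes were lower and 41 higher.

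Next to Egr2, the largest loss was in Itgax, which encodes CD11c, the alpha chain of an integrin complement receptor. It was 37.9 and 37.6 TPM in Egr2WT and 2.98 TPM in both libraries of Egr2MKO, a 12.7-fold difference (-3.28 ± 0.07 (SE), adjusted p = 4.8e-11). Its partner chain Itgb2 was 877 and 895 against 701 and 718 TPM and Itgam, the alpha chain of the related CD11b integrin, 341 and 333 against 296 and 322 TPM, and neither was called. Itgb3, the beta chain of the vitronectin receptor, was called lower (64.7 and 69.7 against 22.6 and 26.4 TPM, -1.42 ± 0.07 (SE), adjusted p = 1.4e-07). These were the 2 integrins called among 14 tested, beside 1.41% of all genes tested called lower.

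Mgll, the lipase that cleaves monoacylglycerols, was 20.4 and 20.5 TPM in Egr2WT and 1.70 and 1.39 TPM in Egr2MKO (-3.08 ± 0.12 (SE), adjusted p = 1.5e-08). Atp6v0d2, a subunit of the vacuolar proton pump, was 251 and 244 TPM in Egr2WT and 30.4 and 29.3 TPM in Egr2MKO (-3.01 ± 0.05 (SE), adjusted p = 6.1e-12). Mmp12, the macrophage elastase, was the most abundant of the 3. It fell from 1254 and 1237 TPM in Egr2WT to 229.9 and 199.7 TPM in Egr2MKO (5.80-fold). Of the 10 metalloproteinases and inhibitors tested it alone was called, beside 1.41% of all genes tested called lower. Mmp14, a membrane-bound metalloproteinase, was 79.7 and 78.4 against 146 and 139 TPM and was not called.

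Alas1, the first and rate-limiting enzyme of heme synthesis, was 337 and 350.2 TPM in Egr2WT and 87.3 and 83.6 TPM in Egr2MKO, a 4.02-fold difference with little spread (-1.996 ± 0.03 (SE), adjusted p = 8.2e-12). Slc7a11, the cystine transporter that feeds glutathione synthesis, was 45.2 and 42.2 TPM in Egr2WT and 8.24 and 6.54 TPM in Egr2MKO (-2.42 ± 0.08 (SE), adjusted p = 4.1e-09). It is a target of NRF2, the factor of the antioxidant response. Of 11 NRF2 target genes 2 were called lower, Slc7a11 and Txnrd1 (thioredoxin reductase, 149 and 147 against 71.8 and 74.7 TPM), beside 1.41% of all genes tested. At an adjusted p under 0.05 alone, 10 of the 11 were lower, beside 9.12% of all genes tested. The list median was -0.66 beside 0.02 over all genes. Prdx1, a peroxiredoxin, was 3711 and 3487 against 2226 and 2124 TPM. Gclm, a subunit of the first enzyme of glutathione synthesis, was 265 and 258 against 176 and 155 TPM, and Hmox1, which breaks heme down, was 327 and 329.9 against 221 and 228 TPM. None of these 3 reached 2-fold. Nfe2l2, which encodes NRF2, was 167 and 159.6 against 145 and 129 TPM.

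Promoters of the genes called were searched for the EGR consensus. RefSeq sequences (GRCm38) of 250 bases before and 50 after each start were read on both strands for GCGNGGGCG, where N is any base. The motif was in a promoter of 14 of 111 lower genes with a sequence (12.6%), 6 of 64 higher genes (9.38%) and 1077 of 9086 genes tested (11.9%). Counted per promoter, with genes not tested included, 5.55% of promoters held it, which is not comparable with the shares per gene. The promoters of 3 genes called lower are shown, with matches in capitals, some of them on the reverse strand. Plekhf1 holds 3 matches and the others 1 each.
Alas1 promoter, chr9:106247905-106248204, strand -: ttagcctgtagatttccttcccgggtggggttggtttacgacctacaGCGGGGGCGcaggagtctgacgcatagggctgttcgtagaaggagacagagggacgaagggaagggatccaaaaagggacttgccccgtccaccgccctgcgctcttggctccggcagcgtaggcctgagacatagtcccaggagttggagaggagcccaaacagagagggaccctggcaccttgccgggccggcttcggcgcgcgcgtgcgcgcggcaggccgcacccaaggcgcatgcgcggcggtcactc
Mgll promoter, chr6:88724162-88724461, strand +: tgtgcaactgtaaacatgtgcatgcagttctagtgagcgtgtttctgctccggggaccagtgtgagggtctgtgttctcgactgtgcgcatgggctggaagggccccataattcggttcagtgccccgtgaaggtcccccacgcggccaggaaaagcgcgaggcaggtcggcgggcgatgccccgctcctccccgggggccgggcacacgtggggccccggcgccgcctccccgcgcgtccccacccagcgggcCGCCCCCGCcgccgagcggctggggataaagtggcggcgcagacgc
Plekhf1 promoter, chr7:38227945-38228244, strand -: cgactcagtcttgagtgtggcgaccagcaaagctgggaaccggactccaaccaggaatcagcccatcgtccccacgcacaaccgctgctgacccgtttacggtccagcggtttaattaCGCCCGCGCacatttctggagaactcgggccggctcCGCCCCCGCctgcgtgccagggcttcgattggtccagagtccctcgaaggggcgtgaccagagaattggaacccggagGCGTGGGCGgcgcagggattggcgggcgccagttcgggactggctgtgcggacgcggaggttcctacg

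The other genes among the 15 with the largest loss were lower-expressed. Myrf, a membrane-bound transcription factor, was 5.79 and 6.62 TPM in Egr2WT and 0.131 and 0.152 TPM in Egr2MKO. The receptor gene Ccr1, which binds inflammatory CC chemokines, was 25.8 and 24.3 TPM in Egr2WT and 4.66 and 6.60 TPM in Egr2MKO (-1.99 ± 0.13 (SE), adjusted p = 1.0e-06), and Lrrc32, whose product holds latent TGF-beta at the cell surface, was 6.53 and 7.35 TPM in Egr2WT and 0.96 and 1.11 TPM in Egr2MKO. Eef1a2, a translation elongation factor, was 7.47 and 6.52 TPM in Egr2WT and 1.17 and 0.834 TPM in Egr2MKO. Bex1 was 3.65 and 4.28 against 0 TPM in both libraries, so it was listed at 0 without EGR2. S100a9, a calcium-binding protein of neutrophils and monocytes, was 16.2 and 12.8 TPM in Egr2WT and 3.88 and 1.64 TPM in Egr2MKO, while its partner S100a8 was 35.9 and 26.7 against 18.4 and 15.3 TPM and was not called. The neutrophil list summed to 108 and 103 TPM in Egr2WT and 108 and 98.7 TPM in Egr2MKO, with Ly6g and Retnlg at 0 in all 4 libraries. Of its 6 tested genes, S100a9 and Mpo were called lower, beside 1.41% of all genes tested, and the list median was -0.86. At an adjusted p under 0.05 alone 3 were lower and 1 higher, beside 9.12% and 11.5% of all genes tested. Csf3r, another member, lay the other way (0.57 on the log2 scale) and was not called. Mpo, the myeloperoxidase of granulocyte precursors, was 1.45 and 2.92 TPM in Egr2WT and 0.578 and 0 TPM in Egr2MKO (-1.30 ± 0.28 (SE), adjusted p = 0.007), and without the second Egr2MKO library its difference was -0.97, adjusted p = 0.06. The part of these cells in the result was not tested. The 2 noncoding genes Dnmt3aos (4.75 and 5.07 against 1.19 and 0 TPM) and Gm38670 (3.45 and 4.85 against 0 TPM in both libraries) complete the group, and the call of Gm38670 was lost without the second Egr2MKO library (adjusted p = 0.067).

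**Figure D2:**
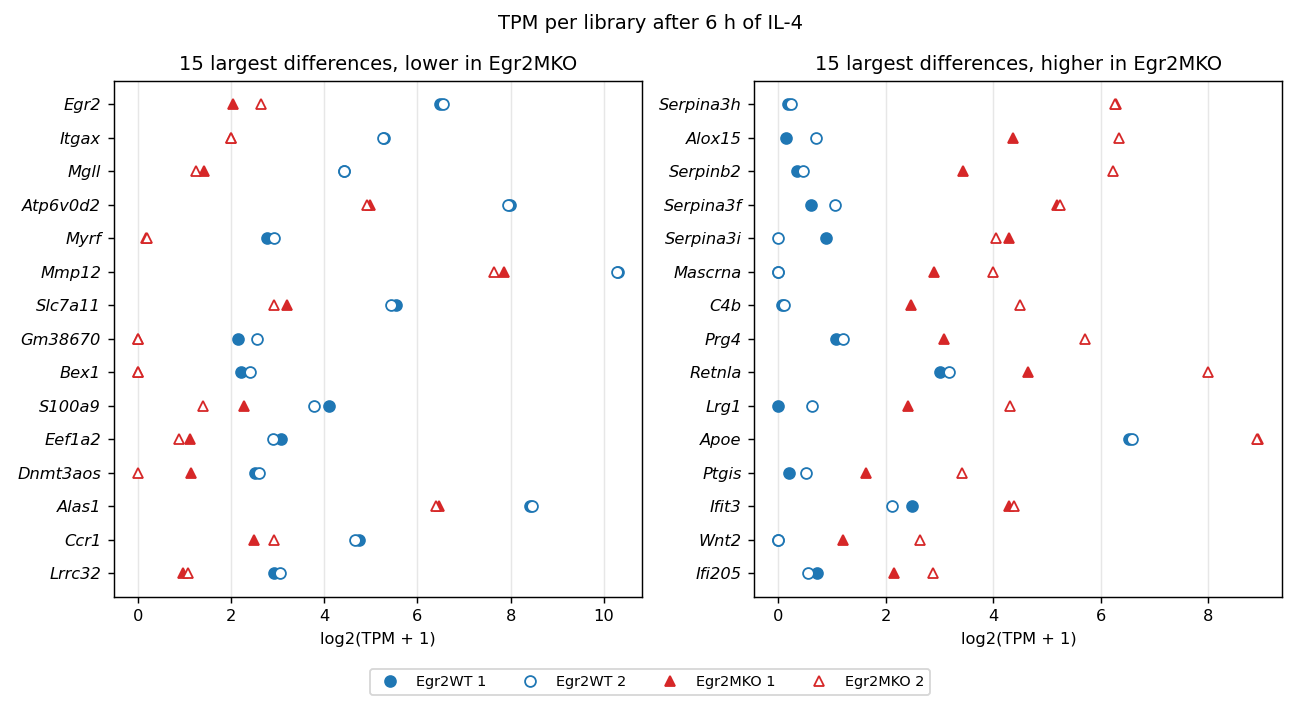
TPM in each of the 4 libraries of 6 h, as log2(TPM + 1) on the x axis, for the 15 genes with the largest difference in each direction. Circles are Egr2WT and triangles Egr2MKO, filled for library 1 and open for library 2. Genes were picked from called genes without overlap between genotypes, so none overlaps. The Egr2MKO libraries lie far apart for Alox15, Serpinb2, C4b, Prg4, Retnla, Lrg1, Ptgis and Wnt2.

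Genes of alternative activation were more often lower than higher. At an adjusted p under 0.05 alone, 11 of 29 tested were lower and 2 higher, beside 9.12% and 11.5% of all genes tested. Of the 29, 6 were called lower and 2 higher, beside 1.41% and 0.894% of all genes tested. The rest were not called, and the list median was -0.23. Besides Itgax and Atp6v0d2, the lower ones included the beta-glucan receptor Clec7a (715 and 698 against 216 and 199 TPM, -1.76 ± 0.05 (SE), adjusted p = 1.4e-09) and the chitinase-like secreted protein Chil3. Chil3 was 280.0 and 267 TPM in Egr2WT and 67.95 and 115 TPM in Egr2MKO, a 2.99-fold difference (-1.62 ± 0.17 (SE), adjusted p = 3.6e-05) and the Egr2MKO libraries differed. The transcription factor Irf4 was 27.97 and 30.1 TPM in Egr2WT and 10.2 and 11.4 TPM in Egr2MKO (-1.35 ± 0.12 (SE), adjusted p = 1.5e-05). The adhesion molecule Cdh1 (E-cadherin) was 8.37 and 8.27 TPM in Egr2WT and 4.72 and 2.50 TPM in Egr2MKO (-1.06 ± 0.21 (SE), adjusted p = 0.0042), and without the second Egr2MKO library its difference was -0.70, adjusted p = 0.029, under 2-fold.

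Other hallmark genes of IL-4 treatment did not reach 2-fold. Arg1, the arginase that competes for arginine, was 1200 and 1215 TPM in Egr2WT and 620.1 and 764 TPM in Egr2MKO (-0.81 ± 0.24 (SE), adjusted p = 0.031). Mrc1, the mannose receptor, was 521 TPM in both libraries of Egr2WT and 573 and 529.7 TPM in Egr2MKO and was not called. Pparg, a lipid-sensing nuclear receptor, was 30.8 and 34.9 against 21.7 and 20.4 TPM (-0.62 ± 0.07 (SE), adjusted p = 6.3e-05). In the IL-4 receptor and signalling list, none of 14 genes was called. Stat6 was 95.7 and 100.1 TPM in Egr2WT and 104 and 105 TPM in Egr2MKO, and Socs1, a feedback inhibitor, was 140.4 and 155 against 179 TPM in both libraries.

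The 2 called members in the other direction were those in which the Egr2MKO libraries disagreed. Retnla, a secreted resistin-like protein known as FIZZ1, was 7.08 and 8.10 TPM in Egr2WT and 24.1 and 254 TPM in Egr2MKO (3.22 ± 0.73 (SE), adjusted p = 0.0087). Without the second Egr2MKO library the difference was 1.55. Alox15, a lipoxygenase of resident peritoneal macrophages and of IL-4-treated human monocytes, was 0.109 and 0.615 TPM in Egr2WT and 19.6 and 80.3 TPM in Egr2MKO (4.93 ± 1.15 (SE), adjusted p = 0.01). Without that library its difference was 3.94. Serpinb2, Prg4, C4b, Lrg1, Ptgis and Wnt2, which are also among the 15 with the largest gain, showed the same ordering of libraries. Serpinb2, an inhibitor of plasminogen activators, was 0.267 and 0.376 TPM in Egr2WT and 9.88 and 74.4 TPM in Egr2MKO. Its difference without the second library was 3.04. Without the second library the difference was 1.20 for Wnt2, a secreted signalling protein, 1.94 for Prg4, 2.38 for C4b, 2.10 for Lrg1 and 1.28 for Ptgis. These values rest on 1 Egr2MKO library of 6 h, with the spread taken from other groups. Alox15, Prg4, C4b, Lrg1 and Ptgis lost their call when the second Egr2MKO library of 6 h alone was left out. They kept it when the first Egr2MKO library of 1 h was left out too.

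The largest gain that the replicates shared was in the Serpina3 genes, a cluster of serine protease inhibitors on chromosome 12. Serpina3h (chr12:104247896-104254405) was 0.128 and 0.18 TPM in Egr2WT and 76.9 and 75.9 TPM in Egr2MKO (6.07 ± 0.12 (SE), adjusted p = 1.8e-11). Serpina3f was 0.515 and 1.09 TPM in Egr2WT and 35.5 and 37.1 TPM in Egr2MKO (4.39 ± 0.16 (SE), adjusted p = 7.2e-09) and Serpina3i was 0.84 and 0 TPM in Egr2WT and 18.5 and 15.5 TPM in Egr2MKO (3.73 ± 0.24 (SE), adjusted p = 9.6e-07). Serpina3g, the only one with a substantial level in Egr2WT, was 36.9 and 44.2 TPM in Egr2WT and 129 and 128 TPM in Egr2MKO (1.64 ± 0.14 (SE), adjusted p = 8.4e-06). Serpina3n was 2.14 and 1.95 against 4.14 and 2.86 TPM and was not called, and the other 6 of the 11 genes were not tested. These genes are close copies of each other, and reads shared between copies make the split among them uncertain.

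All 4 had their highest level of the time course at 6 h in Egr2MKO. Serpina3h was 0.136 and 0.236 TPM in basal Egr2MKO cells, 9.43 and 9.45 at 1 h and 22.5 and 20.5 at 24 h, and at most 0.180 TPM in the 8 Egr2WT libraries. The effect at 6 h exceeded that under basal conditions by 5.82 ± 0.16 (SE), adjusted p = 4.7e-09 and that at 1 h by 2.75 ± 0.16 (SE), adjusted p = 2.3e-05. Serpina3f and Serpina3i also had a higher effect at 6 h than under basal conditions and at 1 h. The effect on Serpina3g was instead lower at 6 h than at 1 h (-1.05 ± 0.20 (SE), adjusted p = 0.046) and than at 24 h (-1.83 ± 0.20 (SE), adjusted p = 0.00023). In a separate set of libraries of C57 BMDMs after 6 h of IL-4, normalized on their own, Serpina3h was 0.186 and 0.086 TPM, and in SPRET BMDMs, a strain of Mus spretus, it was 1.19 and 1.70 TPM.

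**Figure D3:**
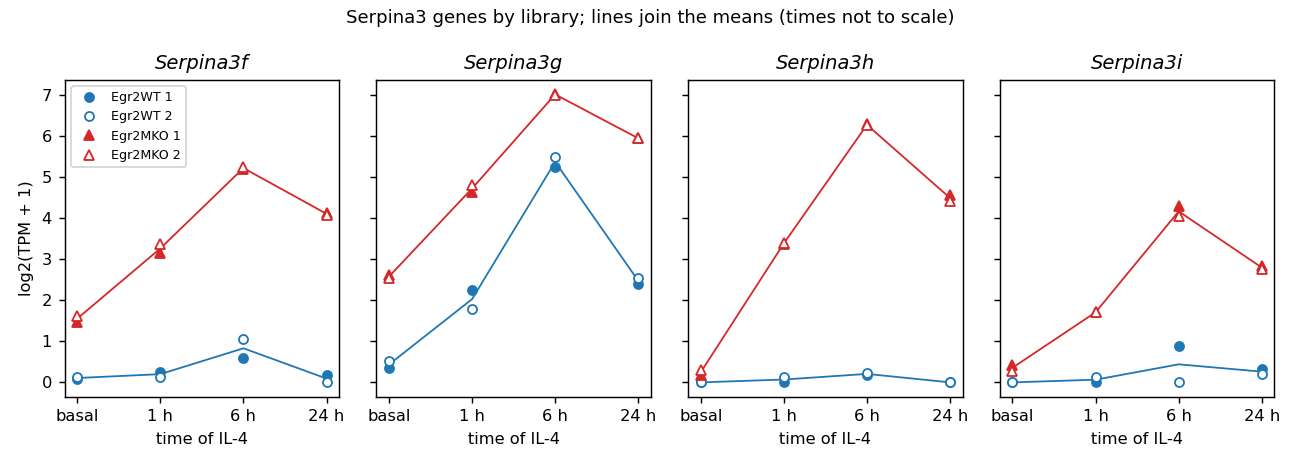
Level of 4 Serpina3 genes in every Egr2WT and Egr2MKO library, as log2(TPM + 1) on the y axis, without IL-4 and at 1, 6 and 24 h, with lines through the means. All 4 peak at 6 h in Egr2MKO, and Serpina3g also peaks at 6 h in Egr2WT, at 36.9 and 44.2 TPM.

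Apoe, which encodes the lipoprotein apolipoprotein E and is a target of the LXR nuclear receptors, was 91.6 and 94.7 TPM in Egr2WT and 490.1 and 478 TPM in Egr2MKO, a 5.20-fold difference (2.36 ± 0.07 (SE), adjusted p = 1.4e-09). It was the only called gene of 9 LXR targets, whose median was -0.06, beside 0.894% of all genes tested called higher. Abcg1, a cholesterol exporter, was 195 and 201 against 180.0 and 183 TPM, and Srebf1, a regulator of lipid synthesis, was 50.3 and 58.1 against 55.1 and 48.8 TPM. Apoe was already higher without IL-4, at 131 and 138 against 616 and 724 TPM. In the separately normalized C57 libraries of 6 h Apoe was 872 and 751 TPM and in SPRET 175 and 185 TPM, and levels in those tables are not on the same scale.

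Interferon-stimulated genes were higher as a group. Of 23 tested 11 were called higher and 0 lower, beside 0.894% and 1.41% of all genes tested. At an adjusted p under 0.05 alone 20 were higher, beside 11.5% of all genes tested, and the median was 0.80 beside 0.02 over all genes. Irf7, the factor that amplifies the type I interferon response, was 111 TPM in both libraries of Egr2WT and 303 and 299 TPM in Egr2MKO (1.44 ± 0.08 (SE), adjusted p = 2.0e-07). Ifit1, a sensor that binds viral RNA, was 8.66 and 7.00 TPM in Egr2WT and 31.7 and 28.03 TPM in Egr2MKO, and its partner Ifit3 was 4.60 and 3.33 TPM in Egr2WT and 18.7 and 20.00 TPM in Egr2MKO. Isg15, a ubiquitin-like modifier, was 25.4 and 25.01 TPM in Egr2WT and 52.8 and 57.5 TPM in Egr2MKO (1.10 ± 0.07 (SE), adjusted p = 1.0e-06). Rtp4 was 27.9 and 22.8 against 81.1 and 74.1 TPM. The other called genes were Ifit2, Oas2, Oasl2, Rsad2, Ifi44 and Cmpk2, with log2 differences between 1.10 and 1.32. Oas3 was 83.3 and 85.5 against 137 and 135 TPM and Bst2 was 320.1 and 305 against 405 and 485 TPM, both short of 2-fold. The gain was already present without IL-4, where 8 of the 23 were called higher, beside 0.373% of all genes tested. At 24 h 17 were, beside 2.42%.

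Among the interferon-stimulated genes called higher, 4 of the 9 with a promoter sequence, namely Ifit1, Ifit3, Isg15 and Rsad2, held the repeat of interferon response elements, 2 copies of GAAA with any 2 bases between. It was in 17 of the 64 higher genes with a sequence (26.6%), 2 of 111 lower genes (1.80%) and 361 of 9086 genes tested (3.97%). This motif was chosen after the calls were seen, and the shares are given without a test. The promoters of Ifit1 and Isg15 show the repeat in capitals, on either strand.
Ifit1 promoter, chr19:34640639-34640938, strand +: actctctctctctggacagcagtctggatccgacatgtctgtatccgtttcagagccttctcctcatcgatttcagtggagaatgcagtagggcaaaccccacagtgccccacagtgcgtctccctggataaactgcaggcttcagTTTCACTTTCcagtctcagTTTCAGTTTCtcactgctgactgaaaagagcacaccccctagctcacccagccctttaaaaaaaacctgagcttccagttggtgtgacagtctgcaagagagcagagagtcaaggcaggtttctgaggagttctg
Isg15 promoter, chr4:156200769-156201068, strand -: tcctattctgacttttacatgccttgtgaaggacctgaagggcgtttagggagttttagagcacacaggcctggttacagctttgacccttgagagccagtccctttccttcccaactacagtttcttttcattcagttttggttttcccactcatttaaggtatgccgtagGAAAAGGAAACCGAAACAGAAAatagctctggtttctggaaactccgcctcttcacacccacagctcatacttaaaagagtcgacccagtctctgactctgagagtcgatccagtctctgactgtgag

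In the antigen presentation and Fc receptor lists 1 gene each was called higher, beside 0.894% of all genes tested. Of 10 MHC class II genes, 1 was called and 6 were higher at an adjusted p under 0.05 (11.5% of all genes were), with a median of 0.73. The called gene was Ciita, the master regulator of this group, at 9.98 and 7.74 TPM in Egr2WT and 16.2 and 21.3 TPM in Egr2MKO (1.00 ± 0.13 (SE), adjusted p = 0.00026), and without the second Egr2MKO library its difference was 0.82, adjusted p = 0.0023. Cd74, the invariant chain, was 403 and 425 TPM in Egr2WT and 748 and 759 TPM in Egr2MKO, and H2-Aa, a class II alpha chain, was 93.3 and 91.7 against 176 and 161 TPM. Fcgr1, the high-affinity IgG receptor, was 11.4 and 9.14 TPM in Egr2WT and 26.4 and 28.9 TPM in Egr2MKO (1.35 ± 0.10 (SE), adjusted p = 3.6e-06), alone among 7 Fc receptor genes, whose median was 0.25. Fcgr3, a low-affinity IgG receptor, lay the other way (-0.21 ± 0.04 (SE), adjusted p = 0.0018).

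Secreted mediators moved both ways. Of 29 cytokine and chemokine genes tested, 2 were called lower and 4 higher, beside 1.41% and 0.894% of all genes tested. Csf1, the growth factor M-CSF, was 43.3 and 44.97 TPM in Egr2WT and 12.9 and 9.98 TPM in Egr2MKO (-1.87 ± 0.11 (SE), adjusted p = 3.9e-07), and the neutrophil chemokine Cxcl3 was 19.4 and 19.7 TPM in Egr2WT and 7.23 and 2.52 TPM in Egr2MKO (-1.93 ± 0.29 (SE), adjusted p = 0.00067). The higher ones were Ccl5 (92.7 and 78.5 against 173 and 184 TPM), Ccl8 (33.7 and 21.9 against 79.2 and 57.02 TPM), Cxcl10 (1.92 and 2.02 against 5.35 and 9.31 TPM) and the anti-inflammatory cytokine Il10, which was listed at 0 in both Egr2WT libraries and was 1.69 and 1.96 TPM in Egr2MKO. The abundant Tgfb1 was 369 and 388 against 377 and 369 TPM and was not called. Among 20 chemokine and cytokine receptors, Cxcr4, the receptor for CXCL12, was higher (57.6 and 55.4 against 158 and 153 TPM, 1.44 ± 0.06 (SE), adjusted p = 1.4e-08) and Ccr1 lower. The acute-phase protein gene Saa3 was 839.8 and 747 TPM in Egr2WT and 2130 and 2248 TPM in Egr2MKO, a 2.76-fold gain (1.47 ± 0.05 (SE), adjusted p = 7.8e-09), and Orm1, another acute-phase gene, was lower (10.2 and 10.5 against 2.85 and 2.20 TPM).

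Mascrna, a small noncoding RNA cut from Malat1, was listed at 0 in both Egr2WT libraries and was 6.42 and 14.9 TPM in Egr2MKO, and its difference without the second Egr2MKO library was 2.89, adjusted p = 0.2. Of 18 genes that the study itself names, Egr2, Mmp12 and Irf4 were called, and since they were picked on these samples the count is not independent evidence. The groups in the rest of this paragraph were chosen after their values were seen, and 0.894% of all genes tested were called higher. In the Ms4a cluster of membrane proteins on chromosome 19, 4 of 8 tested genes were called higher, led by Ms4a4a (29.2 and 28.8 against 95.1 and 93.7 TPM) and Ms4a6c (63.03 and 63.1 against 159 and 157 TPM). Of 12 tested complement genes 4 were called higher, among them C1qa (107 and 105 against 205 and 228 TPM), Cfb (45.8 and 41.98 against 92.3 and 116 TPM) and C4b, and C4b was far higher in the second Egr2MKO library. The transcription factor gene Bhlhe40 (113 and 110.0 against 46.2 and 48.9 TPM) and Id2, an inhibitor of helix-loop-helix factors (171 and 198 against 72.03 and 63.6 TPM), were lower. Ass1, the argininosuccinate synthase, was 65.5 and 66.5 against 34.4 and 22.1 TPM, and the pseudogene Gm5424 had almost the same values (68.1 and 68.9 against 35.7 and 23.2 TPM), so their reads cannot be told apart.

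**Figure D4:**
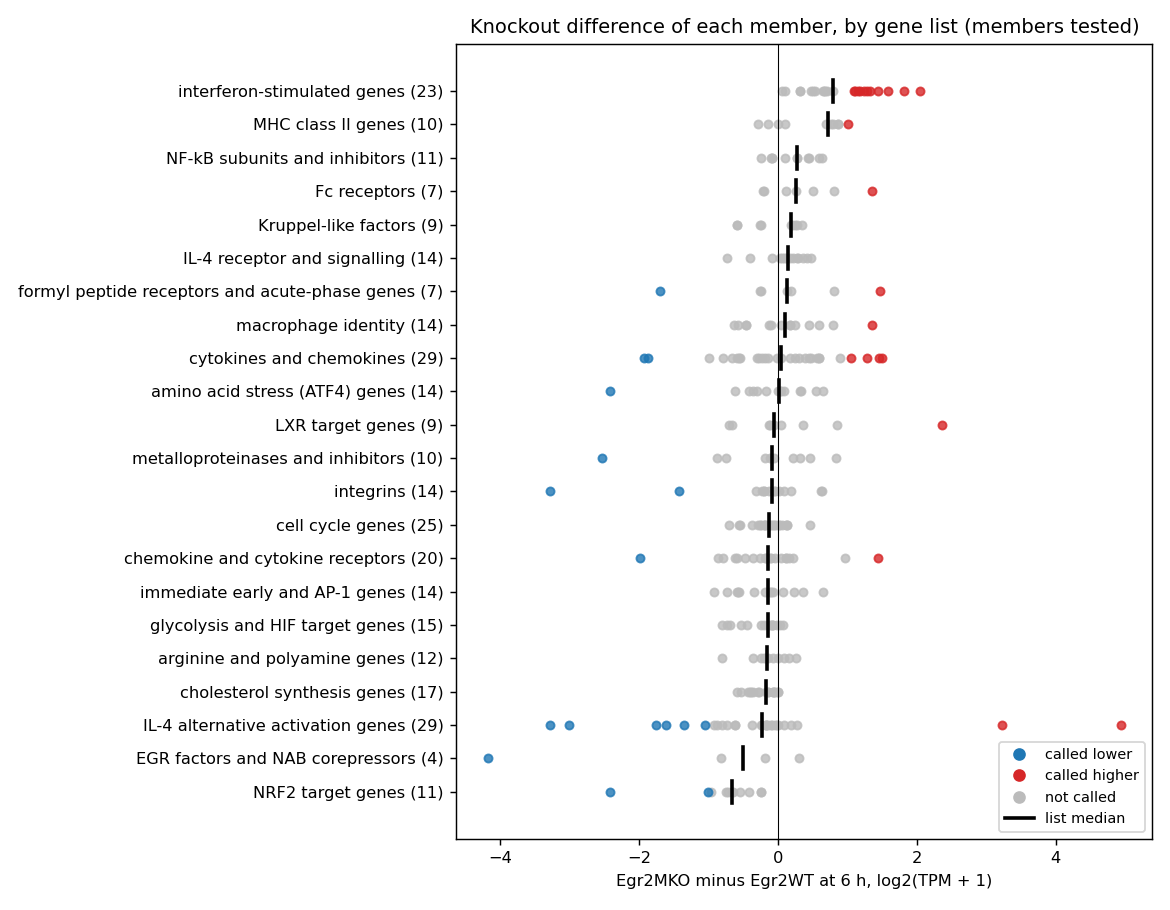
Difference of Egr2MKO minus Egr2WT at 6 h on the log2(TPM + 1) scale (x axis) for each tested member of 22 gene lists (y axis, number tested in brackets). Blue points are called lower, red points called higher and grey points not called, and black bars are list medians, from 0.80 for interferon-stimulated genes to -0.66 for NRF2 targets.

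Over all genes tested 1.41% were called lower and 0.894% higher, so 0 calls say little for lists of 9 to 25 genes. No called gene was found in several lists. They were the cell cycle genes (25 tested, median -0.13), cholesterol synthesis genes (17, -0.18), glycolysis and HIF target genes (15, -0.15), immediate early and AP-1 genes (14, -0.15), arginine and polyamine genes (12, -0.17), NF-kB subunits and inhibitors (11, 0.27) and Kruppel-like factors (9, 0.18). At an adjusted p under 0.05 alone, 7 of the cholesterol genes and 7 of the glycolysis genes were lower, beside 9.12% of all genes, and 5 of the NF-kB genes were higher, beside 11.5%. Mki67, a proliferation marker, was 53.03 and 55.6 against 51.7 and 54.3 TPM and Aldoa, a glycolytic enzyme, 2469 and 2495 against 2369 and 2558 TPM. Nfkbia, the inhibitor of NF-kB, was 76.7 and 80.03 against 115 and 129 TPM (0.63 ± 0.07 (SE), adjusted p = 0.00011). Of the 14 genes of the amino acid stress list, Slc7a11 was the only one called, and of 5 osteoclast markers tested none was.

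Genes were also sorted by how they responded to 6 h of IL-4 in the C57 time course, whose libraries are independent of the Egr2 comparison. There, 188 genes rose (1.56% of 12088) and 69 fell (0.571%). Of the 186 that rose and were also tested here, 19 (10.2%) were lower in Egr2MKO and 7 (3.76%) were higher, beside 1.35% and 0.848% of the 11557 genes tested in both tables. The lower ones included Egr2, Irf4, Chil3, Clec7a, Csf1, Bhlhe40, Cdh1, Myrf, Lrrc32, Scimp and Plekhf1, and the higher ones were Adora2b, Kcnd3, Ms4a4a, Nrg1, Pgf, Serpina3g and Vegfc. The median difference of the 186 genes was -0.01, beside 0.02 over the 11557 genes. Of these genes 148 rose in Egr2WT and 136 in Egr2MKO, with median rises of 1.46 and 1.55, beside 1.99% and 2.37% of all genes tested. Of 67 genes that fell in C57, 37 fell in Egr2WT and 39 in Egr2MKO (background 0.869% and 1.33%), and 1 was lower and 2 were higher in Egr2MKO than in Egr2WT.

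Most genes called at 6 h were also called at another time. Of the 149 lower genes, 48 were also called lower under basal conditions, 51 at 1 h and 101 at 24 h, and 0 were called in the opposite direction at any of these times. Among the 95 higher genes, 34, 40 and 65 were called higher at these times and again 0 were opposite. Backgrounds for these counts were 0.48% and 0.373% (lower and higher) under basal conditions, 0.58% and 0.48% at 1 h and 2.14% and 2.42% at 24 h. All 4 times were called for 39 lower genes, such as Itgax, Atp6v0d2, Mmp12, Mgll and Alas1, and for 29 higher ones, such as Apoe and Irf7. At 6 h alone, 42 lower and 27 higher genes were called, which does not by itself show that their effect differed between times.

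The test of the difference between times gave short lists. Against basal conditions, 13 genes had a lower effect at 6 h (0.108%) and 12 a higher one (0.0993%), of which 4 and 2 were microRNA or small nucleolar RNA genes. Slc7a11 was 57.9 and 63.02 against 29.1 and 28.98 TPM under basal conditions and 45.2 and 42.2 against 8.24 and 6.54 TPM at 6 h, and the effect changed by -1.39 ± 0.12 (SE), adjusted p = 0.00023. Plekhf1, a phosphoinositide-binding endosomal protein, was 3.16 and 3.40 against 3.11 and 2.98 TPM under basal conditions and 20.7 and 20.9 against 6.94 and 4.91 TPM at 6 h (-1.59 ± 0.19 (SE), adjusted p = 0.0018). Tuba8, an alpha-tubulin, was listed at 0 in both Egr2MKO libraries at 6 h and was 1.61 and 1.51 TPM in Egr2WT. Nrg1, the growth factor neuregulin, was 0.391 and 0.252 against 0.133 and 0.138 TPM under basal conditions and 3.38 and 3.52 against 15.2 and 11.4 TPM at 6 h (1.89 ± 0.26 (SE), adjusted p = 0.0044), and reached 22.5 and 18.7 TPM in Egr2MKO at 24 h. The effect on Ahr, the aryl hydrocarbon receptor, changed sign between basal conditions and 6 h (by 1.10 ± 0.12 (SE), adjusted p = 0.0013). Its difference was -0.49 under basal conditions, 0.44 at 1 h and 0.61 at 6 h, each under 2-fold.

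Against 1 h, 9 genes had a lower effect at 6 h (0.0745%) and 5 a higher one (0.0414%), with 2 and 1 such short genes among them. Scimp, a signalling adaptor of antigen-presenting cells, was 1.53 and 0.986 against 1.40 and 1.71 TPM at 1 h and 6.25 and 7.39 against 0.698 and 1.62 TPM at 6 h (-2.07 ± 0.36 (SE), adjusted p = 0.031). The difference in Myrf widened (-1.31 ± 0.25 (SE), adjusted p = 0.048). Myrf rose in Egr2WT from 2.26 and 1.93 TPM at 1 h to 5.79 and 6.62 TPM at 6 h. In Egr2MKO it was near the floor at both times, at 0.188 and 0.248 and then 0.131 and 0.152 TPM. Against 24 h the effect was lower for 107 genes (0.886%) and higher for 57 (0.472%), with 10 and 7 short genes. Rbp4, the retinol-binding protein, was at most 0.400 TPM at 6 h, while at 24 h it was 44.8 and 40.2 against 0.887 and 0.994 TPM (4.06 ± 0.27 (SE), adjusted p = 1.2e-05). Ocstamp, a protein of osteoclast fusion, behaved the same way, at 8.09 and 8.66 against 0.419 and 0 TPM by 24 h. Mmp10, a stromelysin, was at most 0.152 TPM at 6 h and was 0.162 and 0.182 TPM in Egr2WT and 10.4 and 16.2 TPM in Egr2MKO at 24 h. Pgf, placental growth factor, was 4.17 and 2.35 TPM in Egr2WT and 12.2 and 6.08 TPM in Egr2MKO at 6 h and 1.78 and 1.49 TPM in Egr2WT and 25.8 and 29.6 TPM in Egr2MKO at 24 h. With the second Egr2MKO library of 6 h left out, 15 and 14 genes differed from basal, 9 and 6 from 1 h, and 87 and 53 from 24 h. Leaving out the first one instead raised these to 101 and 69, 81 and 45, and 243 and 150.

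**Figure D5:**
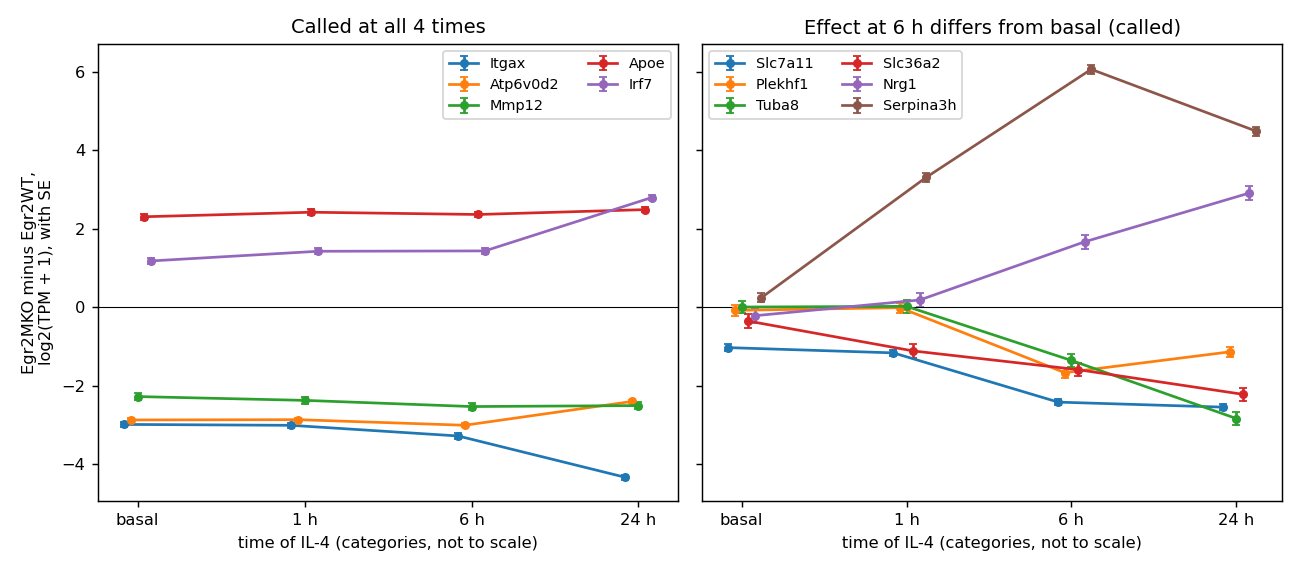
Difference of Egr2MKO minus Egr2WT in log2(TPM + 1) with its SE (y axis) without IL-4 and at 1, 6 and 24 h (x axis, not to scale). On the left are genes called at all 4 times, such as Apoe with a difference of 2.36 at 6 h, and on the right genes whose effect at 6 h differed from basal, such as Serpina3h with 6.07 at 6 h.

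Genes near the altered alleles were counted beside the share called over all genes tested, 1.41% lower and 0.894% higher. Within 10 Mb of Lyz2 on chromosome 10, 1 of 69 genes was called (1.45%), Phlda1, which was lower (1.21 and 1.51 against 0.094 and 0 TPM), and within 10 Mb of Egr2, apart from Egr2, 1 of 95 (1.05%). The gene near Egr2 was Ado, an oxygen-sensing thiol dioxygenase (chr10:67544511-67548955, minus strand), which ends next to Egr2. Ado was 53.6 and 50.8 TPM in Egr2WT and 18.9 and 19.1 TPM in Egr2MKO (-1.41 ± 0.06 (SE), adjusted p = 2.4e-08). It was called at 24 h too, but not under basal conditions or at 1 h.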

How the data were processed

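RNA-seq of 4 libraries (Egr2WT and Egr2MKO BMDMs after 6 h of IL-4, 2 each) was analysed together with the other 12 libraries of the same table. The TPM values were deposited by the authors, who mapped single-end reads of stranded poly(A) libraries with STAR, moved them to mm10 coordinates with MMARGE where needed and quantified genes with HOMER. TPM keeps no depth, so the precision of a low value is limited by tag totals that the file headers give, 4.69 M to 32.9 M. The authors' DESeq2 columns (fold changes and p-values of IL-4 against basal) were not used, nor were the human, F1 and 5-strain files.

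Values were taken as log2(TPM + 1). The 12079 of 24537 genes that reached 1 TPM in 2 or more libraries were fitted with limma 3.58.1 (R 4.3.3, trend in empirical Bayes, 8 residual degrees of freedom), with 8 groups and Benjamini-Hochberg adjustment. Differences of effects between times were contrasts of the same fit. The C57 time course was fitted separately over 12088 genes. The fit was tested on simulated data, in which it recovered most changed genes. Unchanged genes were rarely called when all groups had equal spread, but were called too often, above all at adjusted p alone, when each group kept its own spread. Named genes were the 15 largest called differences in each direction without overlap between genotypes (microRNA and small nucleolar RNA genes left out), 5 per direction for each difference between times, called members of the gene lists, up to 3 abundant uncalled members per list and the 5 genes on which the Egr2MKO libraries differed most. Genes outside this rule were chosen after their values were seen. The comparison, members and lists were chosen with earlier results of these data known. Alternatives were other pseudocounts, filters, scalings and variance settings, a replicate block and leaving out each library. A few genes are not reported here.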

Additional observations from a re-analysis of the deposited data

Results flagged for a closer look

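The effect of Egr2 loss differed between 6 h and other times, by the limma contrast of the 2 effects in the fit of 16 libraries (over 2-fold and adjusted p under 0.05). Against basal conditions it was lower for 13 genes and higher for 12. The named lower genes, with the change of effect on the log2 scale, were Olfr111 (-1.65), Plekhf1 (-1.59), Slc7a11 (-1.39), Tuba8 (-1.36) and Slc36a2 (-1.24). The higher ones were Serpina3h (5.82), Serpina3i (3.37), Serpina3f (2.95), Nrg1 (1.89) and Fam110c (1.38).

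Against 1 h the effect was lower for 9 genes and higher for 5. Scimp (-2.07), Plekhf1 (-1.66), Olfr111 (-1.40), Tuba8 (-1.38) and Myrf (-1.31) were lower, and Serpina3h (2.75), Serpina3i (2.08), Nrg1 (1.48) and Serpina3f (1.33) were higher.

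Against 24 h the effect was lower for 107 genes and higher for 57. Gm38670 (-4.00), Mmp10 (-3.61), Nptx1 (-2.99), Pgf (-2.23) and S100a9 (-1.98) were lower, and Retnla (4.69), Rbp4 (4.06), Serpinb2 (3.82), Ocstamp (2.80) and Ear12 (2.56) were higher. Retnla and Serpinb2 are among the genes on which the 2 Egr2MKO libraries of 6 h disagreed.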

How the results depend on the processing

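Of 2470 refits of the 166 named genes tested, 103 lost the call and 15 gained it. In 0 refits did a gene called in either fit change direction. Changes of direction in genes called in neither fit were not counted. Counts are given as lower and higher. With a pseudocount of 0.1 TPM, 269 genes were lower at 6 h, 104 under basal conditions, 166 fell with IL-4 in Egr2WT, 269 in Egr2MKO and 132 in C57, and 1 gene had a higher effect than at 1 h. With 5 TPM the counts were 50 and 54 at 6 h, 25 and 21 under basal conditions, 23 and 29 at 1 h, and 114 and 156 at 24 h. The effect then differed from basal for 6 and 6, from 24 h for 36 and 31 and was lower than at 1 h for 3, and IL-4 responses were 32 and 146 in Egr2WT, 60 and 175 in Egr2MKO and 18 and 109 in C57. The higher share of the 6-hour calls was 38.8% and became 51.9% at 5 TPM. Median-ratio scaling gave 68 genes with a lower effect than at 24 h. With the compared groups alone, 55 and 41 were called at 6 h, and the effect differed from basal for 2 and 4, from 24 h for 58 and 29 and from 1 h for 2 and 1. Array weights gave 7 and 7 against basal, 37 higher against 24 h, and 3 and 3 against 1 h. Leaving out the 2 libraries with the highest sums of peritoneal macrophage genes gave 22 higher against basal, and 3 and 10 against 1 h. This alternative was chosen after those sums were seen. It did not remove these genes from the comparison, since the first Egr2MKO library of 6 h stayed in. That library summed to 149 TPM, against 56.99 and 57.01 TPM in Egr2WT at 6 h. The cause of these shifts in the counts was not tested.

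Leaving out 1 library at a time, counts ranged over 130 to 287 and 97 to 198 at 6 h, 57 to 64 and 39 to 56 under basal conditions, 57 to 70 and 52 to 64 at 1 h, and 245 to 276 and 288 to 308 at 24 h. Differences of effect ranged over 8 to 101 and 6 to 69 against basal, 2 to 81 and 1 to 45 against 1 h, and 74 to 243 and 34 to 150 against 24 h. IL-4 responses ranged over 101 to 126 and 235 to 275 in Egr2WT, 136 to 295 and 262 to 383 in Egr2MKO, and 62 to 99 and 191 to 193 in C57. The shorter motif GNGGGNG was in 89.2% of lower, 73.4% of higher and 83.5% of all genes, and within 5 Mb 0% of genes around Lyz2 and 3.85% around Egr2 were called. The median of the amino acid stress list, 0.01, was the only one of 31 list medians to change sign with scaling.

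The difference between the libraries of a group correlated little between groups, with correlations from -0.139 to 0.0565 over 28 pairs of groups. Low values over all genes cannot show whether libraries with the same replicate number shared a mouse or culture. A replicate block gave 171 lower and 108 higher genes at 6 h.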
